A study of Saccharomyces cerevisiae with 8 samples.

Results

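Ribosome biogenesis and RNA polymerase I genes of budding yeast were taken as the protein-coding genes of the sacCer3 (R64) annotation named *UTP*, *NOP*, *RRP*, *NSA*, *DBP* or *RPA* with a number. The rule gave 71 members of 6002 nuclear protein-coding genes. The promoter of each gene was the window from 500 bp upstream to 100 bp downstream of its coding start. A promoter had a peak in a library when the summit of an ATAC-seq peak, the position with the most overlapping fragments, fell in that window.

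Accessible chromatin was mapped by ATAC-seq, a method based on a transposase that inserts adapters into open DNA, in BY4741, a laboratory strain deleted for *HIS3*, *LEU2*, *MET15* and *URA3*. The 4 strains carried synHPRT1R integrated on chromosome XI, synHPRT1 integrated there, synHPRT1R on an assembly vector with *LEU2* (labelled YAC, here the episome) or synHPRT1 on that vector. synHPRT1 is the human *HPRT1* locus and synHPRT1R the same sequence reversed without complementing it, and both are written below without "syn". Integrated strains were grown in YPD and episome strains in SC-Leu, so the effects of genomic context and medium cannot be told apart. Each strain gave 2 libraries from independent clones, grown at 30 °C for 6 h from an OD of 0.1 to about 0.6. There was no strain without a synthetic locus, and every gene described here is a native gene present in each strain.

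Most of the members work in the nucleolus. The naming rule also took *DBP1*, *DBP2* and *DBP5*, which encode helicases with roles outside it. RNA polymerase I transcribes the long ribosomal RNA precursor, box C/D and H/ACA snoRNPs guide its modification, and the small-subunit processome, which holds the UTP-A and UTP-B complexes, folds and cuts it. Other factors, many of them DEAD-box RNA helicases, build the large subunit, and the exosome trims and degrades the RNA pieces. In yeast these genes are known to be transcribed together when growth is fast. Their promoters are known for a pair of short elements, PAC, which Dot6 and Tod6 bind, and RRPE, which Stb3 binds, and for the activator Sfp1.

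The letters of these elements were searched on both strands of each window as GCGATGAG for PAC and AAAATTTT for RRPE, with CGGGTAA for the general regulatory factor Reb1. The stretches below are from the reference genome (RefSeq R64, the sacCer3 build) and are written 5′ to 3′ on the strand of the gene, with capitals marking a match to one of these motifs. The first 2 belong to *RPA14* and *UTP5*, the members with a promoter peak in all 8 libraries. They lie at chrIV:769352-769413, forward strand, from 173 to 112 bp upstream of *RPA14*, and at chrIV:1267280-1267351, forward strand, from 191 to 120 bp upstream of *UTP5*.
RPA14: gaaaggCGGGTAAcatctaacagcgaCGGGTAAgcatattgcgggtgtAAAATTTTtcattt
UTP5: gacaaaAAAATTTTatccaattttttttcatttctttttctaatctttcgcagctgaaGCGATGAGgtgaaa
The next 6 show the close pairs of RRPE and PAC, in either orientation of PAC, in members with a promoter peak in none of the 8 libraries. They lie at chrXIV:182727-182759 (reverse strand) for *RPA49*, chrV:326050-326081 (reverse) for *UTP7*, chrV:414299-414333 (reverse) for *NSA2*, chrVII:695270-695299 (forward) for *NOP7*, chrXIV:510392-510422 (forward) for *NOP2* and chrIV:394063-394093 (forward) for *DBP10*.
RPA49: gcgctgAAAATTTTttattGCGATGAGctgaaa
UTP7: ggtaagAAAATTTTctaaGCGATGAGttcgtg
NSA2: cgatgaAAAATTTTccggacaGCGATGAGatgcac
NOP7: ttaaagAAAATTTTttGCGATGAGatgaga
NOP2: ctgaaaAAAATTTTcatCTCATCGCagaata
DBP10: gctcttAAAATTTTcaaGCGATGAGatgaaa

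PAC letters were in 32 of the 71 member windows (45.1%), against 304 of 6002 windows of all protein-coding genes (5.06%). RRPE letters were in 45 member windows (63.4%), against 790 windows of all genes (13.2%). Both were in 22 member windows (31%), against 144 of all genes (2.4%). These shares were not particular to the members. In 105 other ribosome biogenesis genes, outside the naming rule, PAC was in 48.6% of windows, RRPE in 81.9% and both in 40%. An RRPE and a PAC match within a span of 40 bases was found in 18 members (25.4%), against 100 genes in all (1.67%). Matches in members clustered between 200 and 50 bp upstream, which held 29 of 33 PAC matches (87.9%) and 49 of 58 RRPE matches (84.5%). Over all genes the same interval held 193 of 312 PAC matches (61.9%) and 441 of 868 RRPE matches (50.8%). In the 138 cytosolic ribosomal protein genes, which encode the proteins of the ribosome itself, PAC was in 1 window (0.725%) and RRPE in 20 (14.5%). Reb1 letters were in 9 member windows (12.7%), against 10.2% of all genes. A match to the consensus of Abf1, another general regulatory factor, was in 30 member windows (42.3%), against 18.8% of all genes. A run of AAAAAAAA or its complement was in 52.1% of member windows, against 45.8% of all genes. RRPE matches can share bases with such runs. A match describes the sequence and was not taken as a bound site.

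**Figure D1:**
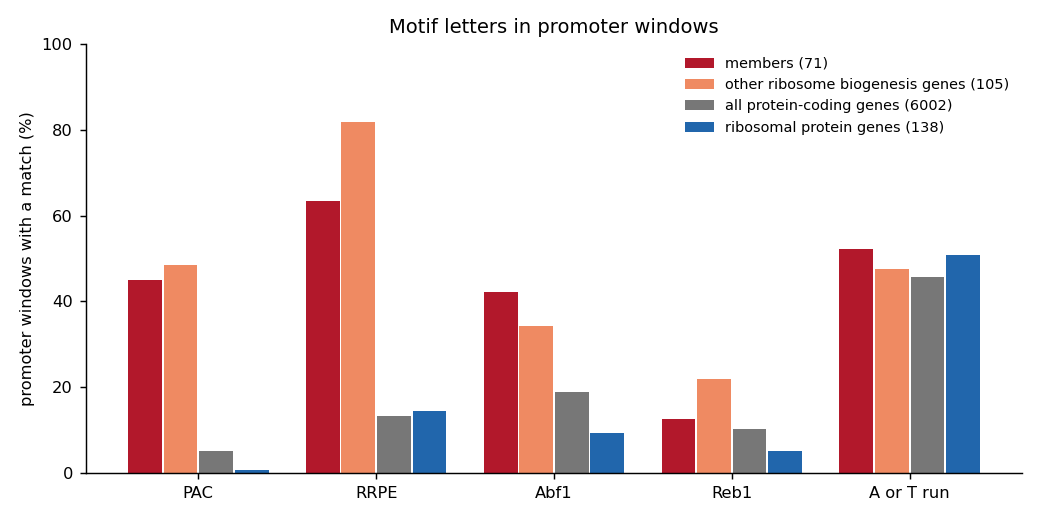
Share of promoter windows (500 bp upstream to 100 bp downstream of the coding start) with a match to each motif, for the members, the other ribosome biogenesis genes, all protein-coding genes and the ribosomal protein genes. PAC was in 45.1% of members, 48.6% of the other ribosome biogenesis genes and 5.06% of all genes, and RRPE in 63.4%, 81.9% and 13.2%.

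Few of the members had a promoter peak in any library. A peak was present in 8 and 5 member promoters in the integrated HPRT1R libraries, 6 and 5 in the integrated HPRT1 libraries, 4 and 6 in the HPRT1R episome libraries and 5 and 7 in the HPRT1 episome libraries. Over all genes, the percentage with a peak was 18.7% and 17.1% in the integrated HPRT1R libraries, 15.6% and 13.7% in the integrated HPRT1 libraries, 15.1% and 14.4% in the HPRT1R episome libraries and 14% and 14.4% in the HPRT1 episome libraries. The share of members ranged from 5.63% to 11.3% and was below the share of all genes in 8 of 8 libraries. This was not particular to the members. The share of the other ribosome biogenesis genes, 5.71% to 13.3%, was also below that of all genes in 8 of 8 libraries. Averaged over libraries the share of members was 8.1%, against 15.4% for all genes, a mean difference of -7.28 percentage points. With a window from 200 bp upstream it was -1.69 percentage points (2.64% of members, 4.33% of all genes), with members below all genes in 7 of 8 libraries. With only peaks of −log10 q of at least 10 the difference was -1.57 (0.88% and 2.45%). Both shares were lower under these settings. No test of the list was made, because the members were chosen with earlier results of these data known. The number of member promoters with a peak was 6 ± 1.41 in integrated libraries and 5.5 ± 1.29 in episome libraries (SD, n = 4 each), a difference within the spread between libraries.

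Of the 71 members, 13 (18.3%) had a promoter peak in at least 1 library, where 32.1% of all genes did. The other 58 had none. A peak in 1 library was found for 6 members, in 2 to 7 libraries for 5 members and in all 8 libraries for 2 members (2.82%), where 4.37% of all genes had a peak in all 8. When each summit was given to its nearest coding start alone, 0 members and 2.03% of all genes had one in all 8, and 14.1% of members and 26.6% of all genes had one in at least 1 library. No member had a peak in 4 of 4 integrated and 0 of 4 episome libraries, a pattern shown by 0.0833% of all genes. The opposite pattern was also found for 0 members and for 0.0167% of all genes. A promoter without a listed peak is one that did not pass the threshold of the peak caller. The lowest summit in a list had 13 to 16 fragments, or 2.31 to 2.61 times the genome-wide background of its library, and lower accessibility was not detectable.

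**Figure D2:**
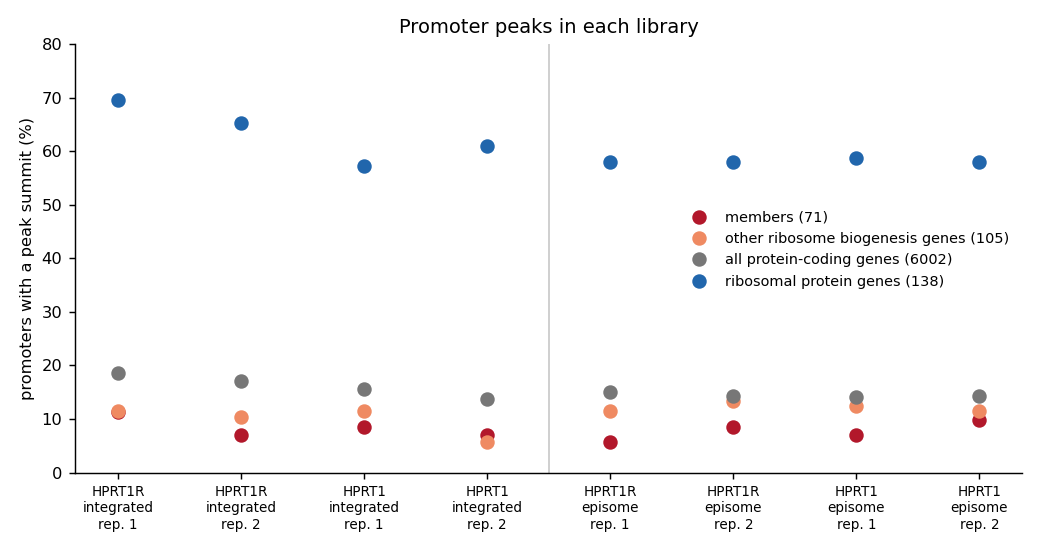
Percentage of promoters with a peak summit in each of the 8 libraries, integrated strains on the left and episome strains on the right. In every library the members and the other ribosome biogenesis genes lie below all protein-coding genes, and the ribosomal protein genes lie between 57.2% and 69.6%.

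By role, peaks in at least 1 library were found for 3 of 7 RNA polymerase I subunit genes, 2 of 6 UTP-A genes, 0 of 4 UTP-B genes and 4 of 8 other *UTP* genes. Over all genes the share was 32.1%, and no difference between roles is read from counts this small. None of the 5 snoRNP core genes had a peak, which include *NOP1*, *NOP56* and *NOP58* of the box C/D particles. None of the 8 other small-subunit factor genes and none of the 2 genes for factors of both subunits, *RRP5* and *RRP12*, had one. Of the 21 large-subunit factor genes, 1 had a peak (*DBP6*). Of the 7 exosome genes, 3 had one (*RRP4*, *RRP40* and *RRP43*). The 3 remaining helicase genes, *DBP1*, *DBP2* and *DBP5*, whose products have roles outside the nucleolus, had none. Related genes outside the naming rule were given by counts. Other ribosome biogenesis genes had a peak in 25 of 105 promoters in at least 1 library and in 11% on average. Among them, *BUD21*, which encodes a processome protein, had a peak in all 8 libraries. Genes for subunits that RNA polymerase I shares with other polymerases and for its initiation factors had a peak in 5 of 16 promoters. *HMO1*, which encodes a high-mobility-group protein of ribosomal DNA and ribosomal protein promoters, had one in all 8 libraries. Genes for regulators of the regulon, such as *SFP1* and *DOT6*, had a peak in 5 of 12 promoters. The ribosomal protein genes stood apart, with a peak in 116 of 138 promoters in at least 1 library and in 47 (34.1%) in all 8.

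*RPA14* encodes a small subunit of RNA polymerase I that sits in the stalk of the enzyme. Its promoter peak had a summit pileup, the recovered number of fragments at the summit, of 34 and 40 in the integrated HPRT1R libraries and 36 and 26 in the integrated HPRT1 libraries. In the episome libraries it was 33 and 25 with HPRT1R and 24 and 31 with HPRT1. The pileup of 40 was the highest of any member in any list, and the values of the 2 contexts overlapped. Divided by the genome-wide background of each library, the pileup was 6.01 ± 1.57 in integrated libraries and 4.7 ± 0.786 in episome libraries (SD, n = 4 each). Among all promoter peaks of the same library, *RPA14* lay between the 56.8 and the 96 percentile. The summit was 138 or 139 bp upstream of the coding start in 5 of 8 libraries. That position falls within the stretch printed above, between the second Reb1 match (147 to 141 bp upstream) and the RRPE match (125 to 118 bp upstream). In the other 3 libraries the summit was 275 bp upstream with integrated HPRT1R, 278 bp with the HPRT1R episome and 190 bp with the HPRT1 episome. *RPA14* is divergent from *CPR1*, which encodes cyclophilin, across 524 bp, and 2 of the 8 summits were nearer to the start of *CPR1*. The peak therefore lies in a region shared by both genes.

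*UTP5* encodes a subunit of UTP-A, the complex that binds the start of the ribosomal RNA precursor. Its summit pileup was 21 and 26 in the integrated HPRT1R libraries and 30 and 19 in the integrated HPRT1 libraries, against 26 and 18 with the HPRT1R episome and 28 and 25 with the HPRT1 episome. Relative to background it was 4.19 ± 0.88 in integrated libraries and 4.05 ± 0.837 in episome libraries (SD, n = 4 each). The ranges of the 2 contexts overlapped. *UTP5* is divergent from *NCB2*, which encodes a subunit of the transcription repressor NC2, across 572 bp. Its summits fell at 241 bp upstream in 3 libraries and between 329 and 477 bp upstream in 5, and these 5 were nearer to the start of *NCB2*. None of the summits lay in the stretch with RRPE and PAC printed above.

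Pileup over background was compared between groups with limma for the 260 promoters that had a recovered peak in all 8 libraries. Of the members, *RPA14* and *UTP5* could be tested. For integrated against episome strains, 0.385% of the promoters tested were called higher and 0% lower at an adjusted p under 0.05, and neither member was called. The median log2 ratio of all 260 promoters was 0.15, and member values are best read against that shift. The log2 ratio was 0.33 ± 0.16 (SE) for *RPA14* (adjusted p = 0.224), 0.18 above the median. For *UTP5* it was 0.05 ± 0.18 (adjusted p = 0.916), 0.10 below the median. After centring each library on its median promoter, the ratio of *RPA14* was 0.16 and that of *UTP5* changed sign to -0.12.

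For HPRT1R against HPRT1, 0% of promoters were called higher and 0% lower, with 57 of 260 at an unadjusted p under 0.05 and a median of 0.20. The ratio was 0.39 ± 0.16 (SE) for *RPA14* (adjusted p = 0.21) and 0.05 ± 0.18 for *UTP5* (adjusted p = 0.877). After median centring the values were 0.17 for *RPA14* and -0.16 for *UTP5*, and 16 of 260 promoters, in place of 57, had an unadjusted p under 0.05. A term for a different effect of context with each locus also called 0% of promoters higher and 0% lower, with 12 at an unadjusted p under 0.05. It was 0.34 ± 0.31 for *RPA14* and 0.41 ± 0.37 for *UTP5* (SE, adjusted p = 0.851 for both). These intervals are wide, and differences of this size between strains cannot be set aside with 2 libraries each.

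Of the other RNA polymerase I genes, *RPA34*, which encodes a subunit of the TFIIF-like module, had a peak in 4 libraries. The pileup was 17 in 1 integrated HPRT1R library, 20 in 1 integrated HPRT1 library, 17 in 1 HPRT1R episome library and 18 in 1 HPRT1 episome library, between the 6.5 and the 13.4 percentile of the promoter peaks of those libraries. The summits moved between 172 and 494 bp upstream, and 3 of 4 were nearer to the start of the snoRNA gene *SNR190*, which lies divergent at 486 bp. *RPA12*, which encodes a subunit for RNA cleavage and termination, had a peak in 1 integrated HPRT1R library with a pileup of 17. The genes of both large catalytic subunits, *RPA190* and *RPA135*, had none, and neither did *RPA43* of the stalk or *RPA49*, the partner of *RPA34*. *RPA190* and *RPA43* are divergent across 804 bp, and the summit nearest to *RPA190* was between 7096 and 7286 bp away in the 8 libraries. For *RPA49*, whose RRPE and PAC pair is printed above, the nearest summit was between 5250 and 7889 bp away. The summit nearest to *RPA135* was a median of 976 bp away, outside the window, and *RPA135* lies 865 bp from a divergent tRNA gene.

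**Figure D3:**
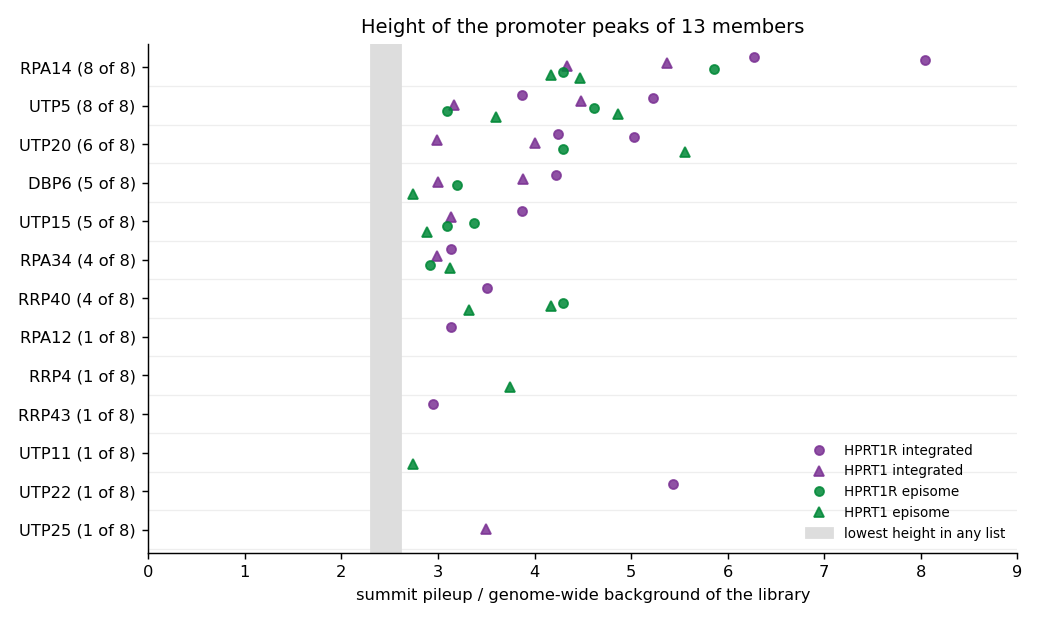
Summit pileup divided by the genome-wide background of the library for the 13 members with a promoter peak in at least 1 library, with the number of libraries in brackets. Circles are HPRT1R and triangles HPRT1, integrated or episome by colour, and the grey band spans the lowest values in the 8 lists. *RPA14* reached 8.04 in 1 integrated HPRT1R library, and the members other than *RPA14* lay between 2.74 and 5.56.

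*UTP20*, which encodes a large processome protein, had a peak in 6 libraries. The pileup was 23 and 25 with integrated HPRT1R and 20 and 24 with integrated HPRT1, against 25 in 1 HPRT1R episome library and 32 in 1 HPRT1 episome library. Its summits lay 388 to 462 bp upstream and all 6 were nearer to the start of the tRNA gene in tandem, which ends 479 bp upstream. *UTP22*, which encodes another processome protein, had a peak with a pileup of 27 in 1 integrated HPRT1R library, and that summit, 438 bp upstream, was also nearer to an upstream tRNA gene. In 5 other libraries the summit nearest to *UTP22* lay 504 to 545 bp upstream, just past the edge of the window, so that a summit within 545 bp was present in 3 of 4 integrated and 3 of 4 episome libraries. *UTP15* of UTP-A had a peak in 5 libraries with pileups of 21 and 21 in the integrated and 18 to 20 in the episome libraries. *UTP15* is divergent from the actin-binding protein gene *AIP1*, and 4 of the 5 summits were nearer to *AIP1*.

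*DBP6*, which encodes a helicase of early large-subunit assembly, had a peak in 5 libraries. The pileup was 21, 26 and 18 in 3 integrated libraries and 18 and 19 in 2 episome libraries, with summits between 73 and 236 bp upstream. *DBP6* is divergent from *RSM19*, which encodes a mitochondrial ribosomal protein, across 267 bp, and 3 of the 5 summits were nearer to *RSM19*. *RRP40*, which encodes a cap subunit of the exosome, had 19 fragments in 1 integrated library and 25, 24 and 23 in 3 episome libraries, 120 to 271 bp upstream. A further integrated HPRT1 library had an *RRP40* summit 520 bp upstream, 20 bp past the edge of the window, so the counts were 1 of 4 integrated and 3 of 4 episome libraries within the window and 2 of 4 and 3 of 4 with that summit. *UTP20* had a peak in 4 of 4 integrated and 2 of 4 episome libraries. Neither count was tested. *RRP4*, *RRP43*, *UTP11* and *UTP25* had a peak in 1 library each, with pileups of 26, 16, 19 and 21, and those of *RRP4* and *RRP43* were nearer to the start of a neighbouring gene.

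**Figure D4:**
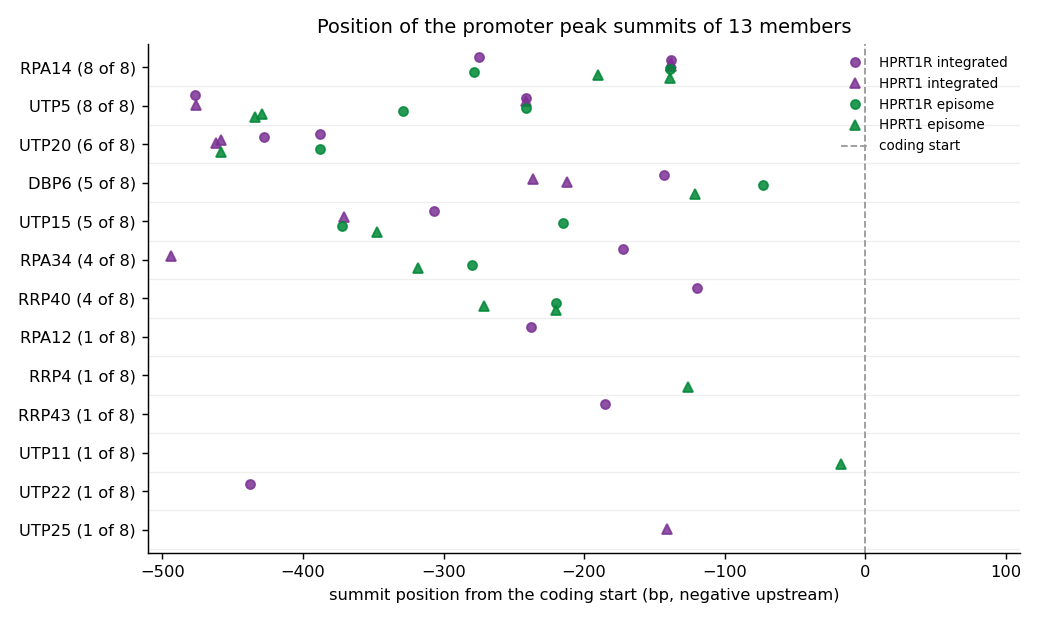
Distance of each promoter summit from the coding start for the same 13 members, negative values upstream. Colours and symbols are by strain. The summits of *UTP20* lie between 462 and 388 bp upstream, and those of *RPA14* gather at 138 and 139 bp upstream in 5 of 8 libraries.

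The heights of member peaks overlapped those of all promoter peaks. The median pileup over background of member promoters was between 3.32 and 5.23 in the 8 libraries, against 3.46 to 4.63 for all promoters with a peak. The median summit offset was -244 ± 65.1 bp for members and -289 ± 7.49 bp for all genes (SD over 8 libraries), a difference within the spread of the member medians, which rest on 4 to 8 promoters a library. The gene upstream was divergent for 38 members, of which 11 had a peak in at least 1 library (12.8% on average). In the 33 members with a tandem gene upstream, 2 had a peak, *UTP20* and *UTP22* (2.65% on average). For all genes these averages were 19.6% in divergent and 10.7% in tandem promoters. The median distance from a member to its upstream neighbour was 365 bp, against 422 bp for all genes and 630 bp for the ribosomal protein genes.

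Members with a peak were set against motif content, without a test. Of the 32 members with PAC, 5 had a peak in at least 1 library (15.6%), and of the 45 with RRPE, 6 did (13.3%). Of the 22 with both, 2 did, *UTP5* and *UTP25*, and of the 16 with neither, 4 did. Averaged over libraries the order differed, with a peak in 6.25% of members with PAC and 8.89% with RRPE. The average was 5.11% with both and 5.47% with neither. No difference by motif is read from counts this small. Among the other protein-coding genes, 32% of the 272 with PAC, 31.4% of the 745 with RRPE and 32.4% of the 5036 with neither had a peak in at least 1 library. Of the 30 members with an Abf1 match 7 had one (23.3%), against 52% of other genes with the match. With a Reb1 match it was 1 of 9 members, *RPA14*, against 44.4% of other genes with the match.

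Peaks were also distant from the members beyond the window. The median distance from a member's coding start to the nearest summit was between 3442 and 5846 bp in the 8 libraries, against 2800.5 to 4039.5 bp for all genes and 317 to 408 bp for the ribosomal protein genes. Taking for each gene the median over 8 libraries, 15.5% of members had a summit within 1000 bp, against 23.6% of all genes. Upstream of the window, within 1000 bp of the coding start, *UTP6* had a summit in 7 libraries (768 to 880 bp), *UTP22* and *RPA135* in 5 libraries each (504 to 545 bp and 897 to 991 bp), *RPA34* in 3 (651 to 879 bp) and *RRP40* and *DBP2* in 1 each (520 and 997 bp). No member had a summit in its coding sequence beyond 100 bp from the start in any library, where 2.67% to 3.38% of all genes did. The other ribosome biogenesis genes had none either, and 0% to 1.45% of the ribosomal protein genes had one. The absence was therefore not particular to the members.

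**Figure D5:**
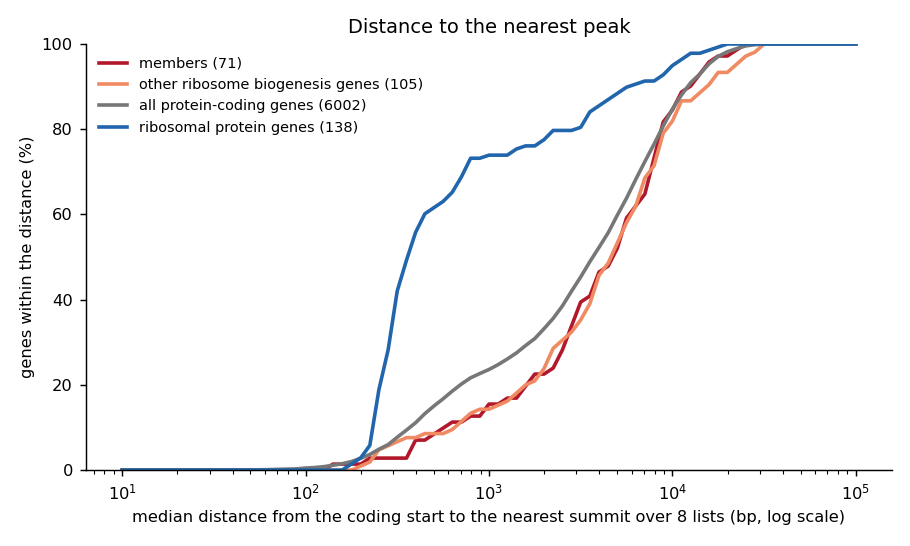
Cumulative share of genes (vertical axis) whose coding start lies within a given distance of the nearest summit (horizontal axis, log scale, median over 8 libraries). At 1000 bp the curves are at 15.5% for the members, 14.3% for the other ribosome biogenesis genes, 23.6% for all protein-coding genes and 73.9% for the ribosomal protein genes.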

How the data were processed

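The peak lists of 8 ATAC-seq libraries were analysed. Reads were trimmed by the authors and aligned with Bowtie2 2.2.9 to a custom sacCer3 reference holding the synthetic locus, and peaks were called in each library with MACS2 2.1.0 on paired-end fragments, keeping duplicates and without a control. SAMtools 1.9, bcl2fastq 2.20 and deepTools 3.5.0 are also named in the submitters' processing notes. No shift of reads towards the transposase cut is stated. Per peak, the deposited columns are the summit fold enrichment (a ratio), its −log10 p-value and −log10 q-value, an integer score made from the q-value and the summit position, all per library.

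From the ratio and p-value, whole summit pileups and local backgrounds were solved for, and 99.3% to 99.6% of peaks returned their p-value within 0.001 (−log10). Read totals are not given in these files. Depth was read from the genome-wide background, 4.97 to 6.93 fragments, and the lists held 988 to 1284 nuclear peaks. Peak numbers can depend on depth, but they did not rise with this background. HPRT1 episome replicate 2, with 6.93 fragments, held 988 nuclear peaks, and integrated HPRT1R replicate 2, with 4.97, held 1171. No sampling interval is given.

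Genes came from the RefSeq R64 annotation, whose sequence matched both homology arms of the study. It starts genes at their coding start, so transcription starts were not used. A summit counted for every window holding it. Log2 pileup over background was fitted with limma 3.58.1 (R 4.3.3) on locus and context, two-sided, with Benjamini-Hochberg adjustment over the 260 promoters with a recovered peak in all 8 lists. A further 2 promoters, in ribosomal DNA, had pileups that were not recovered. In simulated data for the comparison of integrated with episome strains on 260 promoters, 16 of 20 changes of 0.5 and 20 of 20 of 1 (log2) were called, with 0 false calls. The simulated promoters were independent and all had the same spread, whereas the 260 real promoters held 203 distinct peak regions. These rates therefore need not hold for the real comparison or for single members. Pileups of 4000 of 4000 simulated peaks were recovered. The tests treat the 2 clones of a strain as independent.

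The members and the other gene lists were chosen with earlier results of these data known. The naming rule itself used gene names alone. Separately, the plan was to describe by name the RNA polymerase I genes and members with a peak in all 8 lists. It also took members called by limma and those with the tallest peaks. The other members with a peak, *UTP6*, *DBP2* and the promoters printed without a peak were named after their values were seen. Alternatives were any overlap, a window of 200 bp upstream, −log10 q of at least 5 or 10, 988 peaks per list, the nearest coding start, other scalings and terms, each library left out and other motif windows and letters. Python 3.11.15, NumPy 2.4.6, pandas 2.3.3, SciPy 1.17.1 and matplotlib 3.10.9 were used. Other assays and mouse cells were not analysed here.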

Additional observations from a re-analysis of the deposited data

Results flagged for a closer look

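With 4 libraries per context, 17 sets of values were screened for a library whose gap to its nearest neighbour took more of the range than Dixon's critical value allows, a rule that marks about 1 in 20 sets by chance, and 2 were marked. The *RPA14* summit lay at -275 bp in 1 integrated HPRT1R library, where the other 3 integrated libraries had it at -138 bp. Among the 4 episome libraries, 1 HPRT1R library had a similar position (-278 bp). The median pileup over background of member promoters was 5.23 in the other integrated HPRT1R library, which had the lowest genome-wide background (4.97 fragments) and 5 member peaks. All promoters with a peak also had their highest median there (4.63), and the ribosomal protein genes had the same median as the members (5.23). The part of depth in that value was not tested.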

How the results depend on the processing

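The share of members with a peak stayed below that of all genes under every alternative run, in each library except with the window of 200 bp, where it was below in 7 of 8. The mean difference was -7.28 percentage points, and -6.88 to -7.67 with 1 library left out, -11.8 with any overlap, -1.69 with the window of 200 bp, and -4.45 and -1.57 with −log10 q of at least 5 and 10. The mean number of members with a peak per library was 5.75, and 5.43 to 6 with 1 library left out, 1.88 with 200 bp, 3.25 and 0.625 with the stricter q values and 3.5 by nearest coding start. Members with a peak in at least 1 list numbered 8 with 200 bp, and 8 and 2 with the stricter q values (11.3%, 11.3% and 2.82%, against 15.1%, 20.7% and 7.55% of all genes). Those in all 8 lists numbered 0, 1 and 0, and 0 by nearest coding start, against 0.133%, 1.62%, 0.217% and 2.03% of all genes, and nothing is read from these counts about the members. These settings admit fewer summits by construction.

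Calls for integrated against episome strains were 1 of 260 promoters, and 0 of 260 with median centring or context as the only term. The promoters tested differed in the other settings. Calls were 3 of 95 with −log10 q of at least 5, 2 of 203 with distinct peak regions and 16 of 582 with any overlap. With 1 library left out they were 0 to 5 (5 of 285 without HPRT1 episome replicate 1). The cause was not tested. With a replicate block there were 4 such calls of 260, and replicate numbers did not pair samples (correlations of deviations between strains from -0.054 to 0.018). *RPA14* was not called under any of these settings, nor was *UTP5*, which could not be tested with −log10 q of at least 5. *UTP5* changed sign with median centring for context (-0.12) and for locus (-0.16), and ranged from -0.11 to 0.19 and from -0.087 to 0.21 with 1 library left out. *RPA14* ranged from 0.21 to 0.43 and from 0.28 to 0.51.

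The median offset of all genes was -306 bp with −log10 q of at least 5 and -252 bp by nearest coding start. In windows from 250 bp upstream to 50 bp downstream, PAC was in 45.1% of members and 3.95% of all genes. RRPE was in 62% of members and 9.05% of all genes there. The shorter GATGAG was in 85.9% of members and 33.3% of all genes, and the longer AAAAATTTT in 54.9% of members and 9.9% of all genes. With about 5 to 7 fragments of background, low accessibility could not be told from none.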
